A study of Saccharomyces cerevisiae with 28 samples.

Results

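Guides against the genes of the small subunit of the cytosolic ribosome were followed through a droplet screen for α-amylase secretion in Saccharomyces cerevisiae. A guide is the 20-base targeting sequence of a guide RNA. A guide was taken as a member when its gene entry in either of the activation lists that accompany the study, an early list and a main list, was 1 of the 56 RPS genes. This rule found 23 guides for 20 genes, out of 40890 guides counted in all and 2278 guides in the rows of both lists used here. Of the 23 listed guides, 19 were in the early list, 7 in the main list and 3 in both (RPS3, RPS7A and RPS22A), and RPS15, RPS13, RPS22B and guide 1 of RPS26B were in the main list alone. The rows of these lists are ranked by the p-value or FDR of the activation screens, and only the top rows were used. A guide thus needed reads and a low enough p-value or FDR in those screens to be a member. For this reason no test is given for listed guides in the early screen or in the comparison of low fractions, nor for the 4 guides of the main list alone in the main activation screens. The repression libraries took no part in the choice.

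All cells were of the Ethanol Red strain, a diploid industrial yeast with an α-amylase cassette integrated at the HO locus in more than 1 copy. Each cell carried a plasmid with a guide under an anhydrotetracycline-inducible promoter and with nuclease-null dCas9 expressed from the TEF1 promoter, fused to the VPR activator in the activation library or to the Mxi1 repressor in the repression library. The same guides were cloned in both libraries, anhydrotetracycline was added to all cells at droplet formation, and droplets with the brightest amylase signal were sorted as the high fluorescence fraction while the rest formed the low fraction. Sorted cells grew overnight on plates before their guides were amplified and sequenced, and expression of the targeted genes was not measured. The early activation screen had 1 round, the main activation screens 4 rounds (2 to 5) and the main repression screens 2 rounds (1 and 2), each with 2 replicates. Each replicate had a high and a low library. Libraries with the same round and replicate label were taken as 1 sort, which the labels do not state.

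The small subunit decodes mRNA. It binds the initiator tRNA and the message, scans for the start codon and, after joining of the large subunit, holds codon and anticodon together. Its proteins are made from mRNAs that are among the most abundant in growing yeast and that rise and fall together with nutrient supply. Most of its proteins are encoded by a pair of duplicated genes, named A and B, and the others by a single gene. The 56 member genes comprised 24 such pairs and 8 single genes. A listed guide was found for both genes of 2 pairs (RPS7 and RPS22), for 1 gene of 11 pairs and for neither gene of the other 11, and 5 of the 8 single genes had one, so that 18 of the 32 proteins were represented. RPS7B and RPS26B were among the genes with 2 listed guides, and 36 genes had none. These counts follow from the rows used and do not measure how many genes the guide library covered.

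The guides on which the results turn are written 5′ to 3′ in lower case, with the last 10 bases, which lie next to the PAM, in capitals. The first set holds the only pair of duplicated genes in which guides to both copies had reads in most libraries, with both guides to RPS7B because their reads in repression high libraries differed.
RPS7A: agaaattctaGGCAGAGCCA
RPS7B guide 1: cactaggcgtTCATAATACG
RPS7B guide 2: gcgagcgcccTGGTAAAATG
The next set holds the other listed guides for which every repression high library lay below every low one by share.
RPS24A: gtattccgttAGTGACTGCG
RPS3: gcccatgggaGAAAGGCTCG
RPS13: attgttgttgATTGATTTAG
RPS1A: gagagtcctgGAATTTCCAG
The last set holds the listed guides with the most reads, RPS15 and RPS22A, a guide whose call rested on a single library, RPS8B, and a guide that was found by position and not by its listing, the first of RPS28B.
RPS15: gtcccggaaaCCGTGTTGGG
RPS22A: gcaaacagtaCGCCTTAGCG
RPS8B: gaaagggtccTGCTTCAGCG
RPS28B placed guide 1: gactttagctAAGGTGACTG

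The listed guides had a median GC content of 50%, with a range from 25% (RPS0B and RPS13) to 70% (RPS18B), against a median of 40% over all guides and also over all listed guides. A G at the first base was present in 15 of the 23 (65.2%), in 53.3% of all listed guides and in 20.3% of all guides. The last 3 bases were GCG in 4 of the 23 (RPS22A, RPS24A, RPS4B and RPS8B), as in 3.29% of all listed guides and 1.46% of all guides. None of the 23 held TTTT, which 11.3% of all guides held. The genes lie on several chromosomes of the R64 assembly. RPS7A (YOR096W) is on chromosome XV at 505794-506767 on the plus strand, RPS7B (YNL096C) on chromosome XIV at 443398-444315 on the minus strand, RPS24A (YER074W) on chromosome V at 306323-307196 on the plus strand, RPS1A (YLR441C) on chromosome XII at 1018141-1018908 on the minus strand, RPS3 (YNL178W) on chromosome XIV at 302680-303402 on the plus strand and RPS15 (YOL040C) on chromosome XV at 253149-253577 on the minus strand.

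Depth ranged from 50433 reads (activation low fraction, round 2 replicate 2) to 3359719 reads per library. Few guides filled a high fraction. Of all 40890 guides, 10586 had a read in the early low libraries, 19312 in the main activation low libraries and 23390 in the repression low libraries, and 13636 and 15660 in the main activation and repression high libraries. One library stood apart in the repression screens. The RLE scaling factor of the high library of round 2 replicate 2 was 0.0349 against 1.39 to 1.46 for the other 3 high libraries, so that its reads weighed most in the fit. Without that sort, the number of guides called enriched over the whole library went from 720 to 5. In the main activation screens RLE set factors of 0.0304 to 1.08 for high and 3.12 to 10.6 for low libraries, and the median log2 fold change of all tested guides was 4.68. With library size alone it was -0.60, so log2 fold changes of the activation screens are read against these medians. Abundance is therefore given first as reads per 1000000 reads of the library (CPM), which uses no such factor. Reads of PCR amplicons are not independent molecules, and sorted cells multiplied before sequencing, so 1 read and 1 sorted cell are not the same.

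In the low fractions, which hold most of the sorted cells, nearly all listed guides were found. At least 1 read was counted for 21 of 23 in the main activation low libraries and for 23 of 23 in the repression low libraries, where all listed guides of the library had 98.3% and 98.6% and all guides 47.2% and 57.2%. RPS22B and guide 1 of RPS26B had no read in any of the 8 activation low libraries. Presence in every library was rarer in activation, with 5 guides in all 8 low libraries (RPS15, RPS1A, RPS22A, RPS4B and guide 2 of RPS7B) against 21 guides in all 4 repression low libraries. The listed guides together took 0.456% and 0.573% of the reads in the early low libraries, between 0.1249% and 0.526% in the main activation low libraries (median 0.325%, n = 8) and between 0.274% and 0.314% in the repression low libraries (median 0.289%, n = 4). The main activation range contained the whole repression range, and the lowest activation value came from the shallowest library. Over the guides read in every main low library, the median share was 0.498% in activation and 0.566% in repression, the opposite order. Because every member was listed from activation reads, these shares are a description of the list. In the high fractions the share was between 0.0033% and 1.17% in main activation (median 0.570%) and between 0.241% and 0.369% in repression (median 0.294%).

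The spread in activation came from few guides. The guide with the most reads held between 28.3% and 99.9% of the listed reads in each main activation high library, and between 18.1% and 39.2% in each low one. In repression these values were 18.2% to 33.7% and 21.7% to 26.9%. RPS15, which encodes an essential protein of the subunit's head, held 18512 of the 18530 listed reads of the round 5 replicate 1 activation high library. RPS4B held 812 of the 899 listed reads in round 4 replicate 1.

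By guide, the repression low libraries were close to each other. Guide 2 of RPS7B had 325, 331, 347 and 354 CPM, a 1.09-fold range, and over the 21 guides with a read in all 4 libraries the median of the range was 2.60-fold, with guide 1 of RPS26B the widest at 38.8-fold. The median CPM was lower in activation than in repression low libraries for 19 of the 23 guides, as for 83.1% of all 2278 listed guides and 92.6% of the 12789 guides tested between the low fractions. It was higher for RPS24A (35.5 against 32.3), RPS3 (63.4 against 12.7) and RPS4B (262 against 198), and was 0 in both for RPS22B. The activation low libraries lay wholly below the repression low libraries for 3 of the 23 guides, against 8.30% of all listed guides. Among tested guides this was 2 of 18, against 17.5% of all 12789, and 0 of the 18 lay wholly above, against 0.0782%. Guide 1 of RPS7B had 0 to 3.12 CPM in activation low libraries and 32.3 to 162 CPM in repression low libraries. Guide 1 of RPS26B had no read in activation and 1.49 to 57.7 CPM in repression. Over all 12789 guides tested between the low fractions, 0.61% were called higher and 13.1% lower in activation, at a log2 fold change beyond 3 and FDR < 0.05.

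The repression screens ask whether lower expression of a gene moves cells to the high or the low fraction. The listed guides went both ways. Of 18 listed guides with enough reads to be tested, 2 were called enriched in the high fraction (RPS7A and RPS8B) and 2 depleted (RPS24A and guide 1 of RPS7B), against 5.37% and 13.5% of all 13403 tested guides. The 18 had a median log2 fold change of 0.48, and all tested guides 0.01. Both depleted calls held without each sort, and both enriched calls were lost without round 2 replicate 2. High and low libraries were matched into sorts by their labels. With each sort as a replicate block 0 of the 18 were called enriched (0 of all guides, from 720) and 1 depleted, guide 1 of RPS7B (log2 fold change -9.34, adjusted p = 0.0419 by edgeR). Under the block RPS24A had an adjusted p of 0.0507, RPS7A a log2 fold change of 2.53 (adjusted p = 0.404) and RPS8B 0.74 (adjusted p = 0.884).

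RPS7A (YOR096W) encodes a protein of the subunit body, 1 copy of a duplicated pair. Its guide was more abundant in the high fraction of every repression sort. It had 365 and 392 CPM in the high libraries of round 1 and 224 and 387 CPM in those of round 2, against 132, 157, 98.6 and 88.4 CPM in the low libraries. The high libraries averaged 342 ± 79.6 CPM and the low libraries 119 ± 31.5 CPM (SD, n = 4), and they did not overlap. The ratio of high to low by share was 2.78 and 2.49 in round 1 and 2.27 and 4.38 in round 2. Every high library above every low library was seen for 26 of 13403 tested guides (0.194%), and RPS7A was the only one of the 23 among them. Over both lists it was 8 of 2097 tested guides. In the fit the log2 fold change was 5.40 (SE 1.96, adjusted p = 0.0366 by edgeR's likelihood ratio test). Its size rested on the scaling, since it was 1.48 with library size alone (adjusted p = 0.659) and 1.58 without round 2 replicate 2 (adjusted p = 0.420). Without any 1 of the other 3 sorts it was 5.67 to 5.96, with an adjusted p of 0.0532 to 0.0639.

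RPS8B (YER102W), for a protein of the subunit body, had 1.20, 90.0, 57.5 and 861 CPM in the repression high libraries and 39.6, 66.7, 43.7 and 62.8 CPM in the low ones. Its high libraries spread over the low ones on both sides, and the value of 861 came from round 2 replicate 2. Its log2 fold change was 7.64 (SE 2.55, adjusted p = 0.0202 by edgeR), and 0.23 without that sort (adjusted p = 0.998). RPS30A had no read in the high libraries of 1 replicate in each round, and 427 and 119 CPM in the others, against 6.86 to 62.8 CPM in the low libraries. Its log2 fold change of 5.64 (SE 2.38, adjusted p = 0.0779) did not pass.

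The depleted guides were nearly absent from the high fraction. RPS24A (YER074W) encodes a protein of the subunit body, and its guide had 17.3, 22.8, 41.8 and 55.7 CPM in the 4 repression low libraries and a single read in the 4 high libraries together. By share this was a ratio of low to high of 362, with a 95% counting interval from 64.6 to 14347. The fitted log2 fold change of -7.49 (SE 1.99, adjusted p = 0.00181 by edgeR) depends on the prior count and was -5.06 with a prior count of 2. Guide 1 of RPS7B had 79.2, 88.2, 162 and 32.3 CPM in the low libraries and also 1 read in the high libraries. Its ratio of low to high was 908, with an interval from 163 to 35911, and its log2 fold change was -8.63 (SE 2.18, adjusted p = 0.000936 by edgeR).

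By share alone, every high library lay below every low library for 5 of the 23 listed guides in repression, which were RPS24A, guide 1 of RPS7B, RPS1A, RPS3 and RPS13. Among the guides with enough reads to be tested, it was 3 of 18 listed guides and 20.3% of all 13403. RPS3 (YNL178W), an essential protein at the mRNA entry site, had 3.57, 14.2, 11.2 and 40.9 CPM in the low libraries and at most 0.598 CPM in the high ones. RPS13, also essential, had 61 reads in the low libraries and none in the high libraries, a share at least 22.2-fold lower in the high fraction when 3 reads over the group are taken as the floor. Both had too few reads for the filter.

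RPS1A (YLR441C) was lower in every sort of both main screens. Its protein lies near the mRNA exit site. Its repression low libraries had 224, 134, 192 and 238 CPM, and the high libraries of the same sorts had 66.0, 19.4, 42.3 and 0.372 CPM. In main activation the low libraries were between 30.9 and 1253 CPM (median 165) and the high libraries between 0 and 29.8 CPM (median 0.667). In the early screen, from which it was listed, it had 366 and 242 CPM in the low libraries and 0 and 0.879 CPM in the high ones. These early values are a description and no further evidence. Low and high libraries did not overlap in either main screen, which was so for 12 of the 1158 guides tested in both (1.04%) and for 1 of the 7 listed guides among them. The fits gave log2 fold changes of -2.14 in repression (SE 1.06, adjusted p = 0.159) and -1.62 in activation (SE 1.03, adjusted p = 0.133), which did not pass. In activation the value lay 6.30 below the median of all tested guides, and with library size alone it was -6.37 (adjusted p = 0.000793). Leaving out each sort in turn gave values from -4.41 (without round 3 replicate 2, adjusted p = 0.00264 by edgeR) to -0.74.

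The 12 other tested listed guides lay between -1.29 (guide 2 of RPS26B) and 4.95 (guide 2 of RPS7B) in repression, and none passed. The most abundant, RPS15, had 621, 477, 411 and 1244 CPM in the high libraries and 845, 498, 485 and 713 CPM in the low libraries, so the fractions overlapped, with a log2 fold change of 4.62 (SE 1.99, adjusted p = 0.0858). It was higher by share in 1 of 4 sorts, round 2 replicate 2, without which the log2 fold change was -0.0362. RPS22A had 602, 330, 992 and 241 CPM against 650, 659, 620 and 494 CPM, also overlapping. RPS21B had 130, 112 and 79.2 CPM in 3 high libraries against 67.6, 29.3 and 21.2 CPM in the low libraries of the same sorts, and 0.372 against 107 CPM in round 2 replicate 2. In that last sort 5 of the 21 listed guides with a read had a higher share in the high library, and in the other sorts 6 to 9. This was 23.8% to 40.9% of listed guides with a read, against 9.52% to 26.4% of all guides with a read and 18.6% to 38.6% of all listed guides.

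Guides to the same gene did not behave alike. Guide 1 of RPS7B was nearly absent from repression high libraries (0, 0, 0.543 and 0 CPM), whereas guide 2 had 281, 335, 236 and 838 CPM there and 354, 347, 331 and 325 CPM in the low libraries. Its log2 fold change was 4.95 (SE 2.03, adjusted p = 0.0664), against -8.63 for guide 1, and the difference between both guides was not tested. Guide 2 was higher by share in 1 of 4 sorts, and without that sort, round 2 replicate 2, its log2 fold change was -0.0391. Guide 1 of RPS26B had 220 of its 221 repression high reads in round 1 replicate 1, and guide 2 had 162 of 171 in round 2 replicate 1. Of the duplicated pair RPS22, guide RPS22A had 5542 high and 6130 low reads in repression and RPS22B 1 and 1.

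In the main activation screens, 6 guides of the early list had enough reads to be tested. Of these, RPS0B, RPS17B, RPS22A, RPS4B and guide 2 of RPS7B were called enriched and RPS1A was not called, against 69.5% of all 1166 tested guides called enriched and 3.34% depleted. RPS22A was also in the main list, which was ranked on these same libraries, so its call is a description and no further evidence. The 6 had a median log2 fold change of 5.55, where all tested guides had 4.68 and the 623 tested guides of the whole early list 4.47. With TMM factors 1 of the 6 was called enriched (the background then was 452 of 1166 guides), and with library size alone 0 of the 6 (22 of 1166). With each sort as a replicate block 0 of the 6 were called, as were 13 of all guides, and the log2 fold changes of the 5 lay between -1.08 (RPS4B) and 2.86 (RPS0B, adjusted p = 0.487 by edgeR).

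Each of the 5 called guides was abundant in 1 to 3 high libraries and rare in the others. RPS0B, a protein that the subunit needs for its maturation, had 2282 CPM in the high library of round 5 replicate 2 and at most 12.2 CPM in the other 7, against 0 to 186 CPM (median 15.3) in the low libraries. Its log2 fold change was 7.73 (SE 1.91, adjusted p = 0.00052 by edgeR). RPS17B had 1118 CPM in the same high library and at most 6.12 CPM in the other 7, and 0 to 682 CPM in the low libraries (log2 fold change 5.37, SE 1.70, adjusted p = 0.00389). RPS0B and RPS17B passed the filter only with high libraries counted, as too few of their low libraries were above its limit. Their calls are therefore no independent support. Guide 2 of RPS7B had 2299 and 253 CPM in the second replicates of rounds 5 and 4 and at most 14.0 CPM in the other 6, with 79.6 to 559 CPM in the low libraries (5.72, SE 1.74, adjusted p = 0.00297). RPS22A had 3325 and 3387 CPM in the second replicates of rounds 5 and 4, 311 CPM in the high library of round 2 replicate 2 and at most 10.2 CPM in the other 5, against 119 to 606 CPM in the low libraries (6.27, SE 1.81, adjusted p = 0.00188). RPS4B had 371 CPM in round 4 replicate 1 and at most 14.6 CPM elsewhere, and was below the low library in all 8 sorts (3.79, SE 1.54, adjusted p = 0.0209). None of the 5 was higher by share in more than 3 of 8 sorts, and in no case did the fractions separate. Over all 1166 tested guides, 0 (0.0%) had every high library above every low one, and 10.6% had every high library below every low one, among them RPS1A.

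RPS0B, RPS17B, RPS22A, RPS7A and guide 2 of RPS7B all had their highest or second highest activation value in the high library of round 5 replicate 2, at 1118 to 3325 CPM. In that library 7 of the 16 listed guides with a read had a higher share than in the low library (43.8%), and in the high library of round 3 replicate 1 none did, where the 23 guides together had 29 reads. Over all guides with a read, 9.68% to 31.2% had a higher share in the high library of a main activation sort. Without round 5 replicate 2, 4 guides of the early list were tested and 2, RPS22A and RPS4B, were called enriched, while RPS0B and RPS17B did not pass the filter. For guide 2 of RPS7B the log2 fold change was then 1.46 (adjusted p = 0.253). The call of RPS4B rested on round 4 replicate 1, without which its log2 fold change was -1.10.

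RPS24A, RPS3 and RPS13 were also rare in activation high libraries. This was not particular to them. RPS18B had 5 high and 1041 low reads there, RPS21B 9 and 1618, and RPS30A 8 and 1166, and none of these was called depleted in repression. Over all guides, 33.3% had a read in the main activation high libraries and 47.2% in the low ones. RPS3 had no read in the 8 high libraries and 0 to 535 CPM in the low ones (1676 reads), a share at least 806-fold lower in the high fraction against a floor of 3 reads over the group. RPS24A had 1 read in the high libraries and 529 in the low ones, and RPS13 had 0 and 427. These guides did not pass the filter, so the fit gives no value. Reads in the activation low libraries were also uneven, since 418 of the 427 of RPS13 came from round 4 replicate 2.

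The guides of the main list alone were chosen on these same libraries and are given as values only. RPS15 had 3836, 214, 10.2, 3194, 10.97, 2065, 7770 and 1341 CPM in the high libraries of rounds 2 to 5 (replicates 1 and 2 of each in turn), and 911, 337, 118, 1248, 514, 1207, 669 and 474 CPM in the low ones. It was higher by share in 5 of 8 sorts, with the most reads of any listed guide. RPS22B had 278 of its 279 high reads in round 2 replicate 2 and no read in a low library. Guide 1 of RPS26B had 5, 3 and 339 reads in the high libraries of 3 sorts and none in a low library.

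In the early activation screen, both replicates are given for the listed guides without a test. Of the 19 guides of the early list, 6 had a higher mean share in the high than in the low fraction, 3 in replicate 1 and 7 in replicate 2. By replicate this was 15.8% and 36.8%, against 17.1% and 34.9% of all guides with a read and 23.5% and 35.7% of all listed guides with a read. RPS7A was high in both, with 1897 and 1006 CPM against 40.9 and 332 CPM in the low libraries. Several guides were high in 1 replicate and not in the other. RPS22A had 1409 CPM in the high library of replicate 1 and 0.879 CPM in replicate 2, RPS27B had 0 and 2418 CPM, RPS21B 0 and 524 CPM, and guide 1 of RPS7B 0 and 535 CPM. Of the early list, reads were limited to the low fraction for RPS0B, RPS17B, RPS18B, RPS31 and guide 2 of both RPS7B and RPS26B. The largest of these was guide 2 of RPS7B, with 875 and 913 CPM in the low libraries and no read in the high ones. RPS31, a single gene that encodes ubiquitin fused to a ribosomal protein, had 102 and 128 CPM in the low libraries. Of all 3215 guides tested in the early screen, 0 were called by edgeR at these thresholds in either direction, 112 and 910 had an unadjusted p under 0.05 and a log2 fold change beyond 3, and DESeq2 called 233 higher and 908 lower.

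RPS7A was higher by share in all 4 repression sorts. It was also higher in both early activation sorts and in 3 of 8 main activation sorts. It was listed from both of those activation screens, so their values are a description and no further evidence. In main activation its high libraries had 1377 CPM in round 5 replicate 2 and at most 8.17 CPM in the other 7, against 0 to 513 CPM in the low libraries, and it had too few reads across libraries for the filter. The effect of high against low was compared between the activation and repression libraries for 18 guides of the early list, and 0 passed, where 3.96% of 14666 guides passed with a higher value in activation and 0.00682% with a lower one. At an unadjusted p under 0.05 and a log2 difference beyond 3 there were 5 of the 18, and with DESeq2 1 passed, guide 1 of RPS7B. That guide had 0 reads in the main activation high libraries and 4 in the low ones. Its adjusted p by edgeR's likelihood ratio test was 0.9998. RPS0B had the largest difference of the 18 (log2 8.63, SE 3.20, adjusted p = 0.0964), and RPS7A had 3.80 (SE 2.65, adjusted p = 0.453). RPS3, RPS7A and RPS22A were also in the main list, so their part in this comparison is a description only.

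A set of guides that did not depend on a listing was found by position. Of 1999 guides with a position in the rows used here, which follow the order of the count table, 21 lay from 500 bases before to 100 bases after the start of a member gene in the R64 assembly, at 16 genes, and 5 of them also lay in the window of another gene. None was among the 23. As a check of positions, 67 guides had both a position and a listed gene, all 67 were on the chromosome of that gene and 56 (83.6%) lay in its window. No read was counted for 10 of the 21 in any of the 28 libraries. In the main activation low libraries 9 were found (42.9%, Wilson 95% interval 24.5% to 63.5%), against 46.2% of the other 1978 guides with a position, and in the repression low libraries 10 (47.6%, interval 28.3% to 67.6%), against 56.0%. Both intervals contain the share of the other guides. They treat guides as independent, though some share a gene, and with 21 guides they are too wide to show likeness.

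Of the 21, 5 were tested in repression and 1 was called enriched, against 5.37% of all tested guides. It was the first of RPS28B, placed 13 bases after the gene's start. RPS28B encodes a protein at the mRNA exit channel. It had 198, 0, 79.8 and 1325 CPM in the repression high libraries and 111, 129, 26.2 and 86.5 CPM in the low ones, which overlapped (log2 fold change 7.54, SE 2.71, adjusted p = 0.0347 by edgeR). As for RPS8B, the highest value came from round 2 replicate 2, and without that sort the log2 fold change was 0.31 (adjusted p = 0.998), and 1.43 with the replicate block (adjusted p = 0.773). Without round 1 replicate 1 or round 2 replicate 1 the adjusted p was 0.0562 and 0.0583. In main activation the guide was the only one of the 21 tested. It had 771 CPM in the high library of round 4 replicate 2 and at most 77.7 CPM in the other 7, against 51.9 to 468 CPM in the low libraries, with a log2 fold change of 4.54 (SE 1.61, adjusted p = 0.00879), against a median of 4.68 over all tested guides, and 0.21 without that sort and 0.48 with the replicate block (adjusted p = 0.923). A guide at RPS28A, in a window shared with other genes, had 729 CPM in the repression high library of round 1 replicate 2 and at most 0.543 CPM in the other 3. Between the low fractions 5 of the 21 were tested and 0 were called, and 0 of 6 were called for the difference between libraries, with 0 of each set at an unadjusted p under 0.05 and a log2 value beyond 3.

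Genes of the large subunit, regulators of ribosomal protein genes and factors that assemble the small subunit were counted beside these. The large subunit had 26 listed guides for 24 of 81 genes. Of 25 tested in repression, 1 was called enriched and 0 depleted, against 5.37% and 13.5% of all tested guides, with a median log2 fold change of 0.12, and 3 and 0 passed at an unadjusted p under 0.05 and a log2 fold change beyond 3. In main activation 11 of 15 were called enriched and 0 depleted, against 69.5% and 3.34% of all tested guides, with a median of 4.87. The difference between the 2 depleted RPS guides and the 0 depleted RPL guides was not tested. Of the regulators, 3 of 11 genes had a listed guide, 0 of 3 passed in repression and 1 of 1 in activation. Of the assembly factors 1 of 11 had a listed guide, which did not pass in repression.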

How the data were processed

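Guide amplicons of 28 libraries were analysed from 2 tables of read counts per guide, replicates apart. The authors deposited raw counts, made by splitting barcodes with Je, mapping with BWA to the guide sequences flanked by padding, and counting in R. The submitters' processing notes name BWA and sacCer3, and versions are not given in the sources used here. The members and gene lists were chosen with earlier results of these data known. Sequences and gene entries come from the study's supplementary lists, names and gene coordinates from the R64 gene table.

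Tests used edgeR 4.0.16 (R 4.3.3) with filterByExpr, RLE factors, glmFit, glmLRT and Benjamini-Hochberg adjustment over all tested guides, with the prior count at 0.125. Calls needed a log2 fold change beyond 3 and FDR < 0.05. The SE was the size of the log2 fold change divided by the square root of the test statistic. All rounds and replicates of a fraction served as its replicates. The labels do not say whether they came from separate cultures, so p-values measure only the spread between these sorts, which may be technical. Intervals are 95% Wilson for shares of guides found and exact for ratios of reads. They cover only the counting error of guides or of reads, respectively. The fits were also run on simulated data with planted changes. Apart from these changes all simulated libraries shared the same guide proportions. The run therefore cannot show how the fits handle libraries as unequal as those here. Alternatives were TMM, library size alone, other filters, glmQLFTest, DESeq2 1.42.0, a prior count of 2, a replicate block and leaving out a sort or a round. The listed guides are named, except that 1 gene counted among the members is not reported here, and of the guides placed by position those called. A match of guides to promoter sequences was planned and could not be made. Guides placed by position, the limit to guides of the early list and the comparison of fractions by share were chosen after seeing the data.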

Additional observations from a re-analysis of the deposited data

Results flagged for a closer look

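In each group of 4 or 8 libraries, the highest or lowest library was set against the others by Dixon's gap on log2(CPM + 1), in 88 groups of listed guides or of their sum. The gap passed in 21 groups, and causes were not tested. The nominal rate of about 1 in 20 is for normal values. Some groups were zeros and a single read, where the gap passes by construction, so the count cannot show an excess. Of the 21 groups, 10 were single high libraries of the main activation screens. In round 5 replicate 2 the highest values were 2282 CPM for RPS0B (median 2.87), 1118 CPM for RPS17B (median 0.877) and 1377 CPM for RPS7A (median 3.13). In round 3 replicate 2 they were 1262 CPM for guide 2 of RPS26B (median 0.210) and 9.65 CPM for RPS8B (median 0). In round 2 they were 3015 CPM for RPS31 and 3.06 CPM for RPS30A in replicate 1, and 1350 CPM for RPS22B in replicate 2. RPS4B had 371 CPM in round 4 replicate 1, and RPS24A had 1.14 CPM in round 3 replicate 1. In the activation low libraries RPS22A had its lowest value of 119 CPM in round 2 replicate 2 (median 424).

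In the repression high libraries, the highest values that stood apart were 65.7 CPM for guide 1 of RPS26B and 57.4 CPM for RPS27B in round 1 replicate 1. Values of 1 read stood apart for RPS22B (0.299 CPM), RPS24A (0.299 CPM) and guide 1 of RPS7B (0.543 CPM). The lowest values that stood apart were 0.372 CPM for RPS21B in round 2 replicate 2 (median 95.6) and 224 CPM for RPS7A in round 2 replicate 1 (median 376). In the repression low libraries the highest values that stood apart were 15.0 CPM for RPS13 and 0.298 CPM for RPS22B in round 1, and 288 CPM for RPS4B in round 2 replicate 1.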

How the results depend on the processing

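The 2 depleted repression calls, guide 1 of RPS7B and RPS24A, kept their side of the threshold under each alternative except the replicate block, where RPS24A had an adjusted p of 0.0507. The count of enriched listed guides, 2, was 0 with TMM, library size alone, glmQLFTest, the replicate block or without round 2, 1 without round 1 and 1 with DESeq2 (RPS30A; the adjusted p of RPS7A and RPS8B was not given), and 0 to 1 without each sort. The count depleted, 2, was 4 without a filter, with CPM above 1 or without round 2, 5 without round 1, 1 under the block, and 2 to 4 without each sort. In activation the 5 enriched guides of the early list became 1 with TMM, 0 with library size alone, DESeq2 or the block, 3 without a filter and 2 without round 5, and 2 to 5 without each sort. The 0 depleted became 1 with library size alone, without a filter or without round 3, and 0 to 1 without each sort. The 1 enriched guide placed by position became 0 with TMM, library size alone, glmQLFTest, DESeq2, the block or without round 2, and 0 to 1 without each sort. Of these guides 1 was lower between low fractions without a filter or with CPM above 1, and 0 to 1 without each library. The difference between libraries had 1 guide of the early list without a filter, with CPM above 1 or with DESeq2. The early count of 6 was 3 to 7 by replicate. The share in activation low libraries, 0.325%, was 0.498% over guides read in every main low library, and in repression 0.289% became 0.566%, or 0.227% without RPS15.

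Directions reversed as follows, on the log2 scale, and the cause was not tested. In activation RPS17B was -0.44 with library size alone, -0.44 with DESeq2 and -0.28 with the block, RPS4B was -2.91, -1.37 and -1.08 and without round 4 -0.96 (without its replicate 1 -1.10), and the first placed guide of RPS28B was -1.41 with library size alone. In repression, RPS22A was -0.20 with library size alone, guide 1 of RPS26B -0.25 with TMM and -0.23 with library size alone, and the block gave -4.70 for that guide, -0.0545 for RPS30A, -3.61 for RPS1B and -2.82 for RPS28A. Without round 1, RPS17B was 0.34, RPS21B -0.15, guide 1 of RPS26B -6.66, RPS4B 0.025, RPS18A -7.06 and RPS28A -3.61. Without round 2, RPS15 was -0.11, RPS22A -0.31, RPS31 -0.83, RPS8B -0.0125 and RPS28B -0.11. Leaving out each sort gave ranges of -0.0362 to 5.31 for RPS15, -1.06 to 0.15 for RPS17B, -6.33 to 2.25 for guide 1 of RPS26B, -0.68 to 1.95 for RPS31, -0.0391 to 5.50 for guide 2 of RPS7B, -4.57 to 3.37 for RPS28A, and in activation -1.10 to 4.15 for RPS4B.

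Deviations of the high and low library of one sort from their group means correlated weakly (-0.001 to 0.117 in activation, 0.00245 to 0.0217 in repression). The block changed the calls over all guides from 720 and 1812 to 0 and 1295 in repression, and from 810 and 39 to 13 and 19 in activation. Over all alternatives the number of guides called higher was 0 to 1125 in repression and 13 to 1650 in activation, and lower 1295 to 5153 and 19 to 276. In the early screen it was 0 to 233 higher and 0 to 908 lower, between low fractions 47 to 632 and 0 to 4653, and for the difference 0 to 872 and 0 to 20. Depth limits the guides with few reads, since 17 of 23 listed guides had at least 10 reads in the repression high libraries and 14 in the activation high libraries.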
